A study of Caenorhabditis elegans with 16 samples.

Results

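Pn.aa and Pn.ap are sister cells, the anterior and posterior daughters of the neuroblast Pn.a in the ventral nerve cord lineage of Caenorhabditis elegans. The members were all cells that the authors' annotation called Pn.aa or Pn.ap in the 4 libraries sorted for the P lineage: 1371 Pn.aa cells and 3083 Pn.ap cells. Together these were 4454 of the 38254 cells in those libraries and of the 151415 cells in the 16 libraries of the series, which profiled sorted cells of young larvae by droplet sequencing with unique molecular identifiers (UMIs). The 4 libraries held live cells of hermaphrodites of the strain UD381, labelled wt for genotype. All 4 carried the transgene ycIs11, which holds phlh-3::vab-10abd::venus together with phlh-3::nls::tdTomato, and the co-marker odr-1::gfp. The larvae were labelled L1 at 11 to 14 hph and at 15.5 to 18.5 hph, with 1 library each, and L1/L2 at 21 to 24 hph, with 2 libraries. The hlh-3 promoter drives both fluorescent reporters, so the sort depended on its activity, and hlh-3 itself differed between the sisters. The annotation names the libraries of 11 to 14 hph and of 21 to 24 hph by hours other than their labels. The library of 11 to 14 hph was matched to its cells by elimination, and the number of genes called in each comparison was also taken without it. Values by library are given in the order 11 to 14, 15.5 to 18.5, and 21 to 24 hph replicates 1 and 2.

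Each P cell divides into an anterior neuroblast, Pn.a, and a posterior epidermal cell, Pn.p. Pn.a makes Pn.aa and Pn.ap. Pn.aa divides again into Pn.aaa, the mother of the cholinergic VA and VB motor neurons, and Pn.aap, which becomes a VC neuron or dies. Pn.ap divides once more, into the cholinergic AS neuron and the GABAergic VD neuron. Neurotransmitter identity in these neurons is set by transcription factors, among them the COE factor UNC-3 for the cholinergic fate and the Pitx-type homeodomain factor UNC-30 for the GABAergic fate. The nuclear receptor UNC-55 keeps the synaptic pattern of VD neurons distinct from that of DD neurons.

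The sister sums held 290518 to 1353500 UMIs per library for Pn.aa and 1068608 to 3434850 for Pn.ap. Pn.aa made up 25.5%, 34.6%, 19.1% and 30.4% of the sister cells in the 4 libraries, with exact Clopper-Pearson 95% intervals of 21.6 to 29.6, 32.6 to 36.6, 15.6 to 23.1 and 27.9 to 33.0. Pn.ap cells were thus the more numerous in every library. The median UMI count per cell was 3413.5, 1518, 3320.5 and 3247.5 in Pn.aa and 3104, 1442, 2504.5 and 2997 in Pn.ap. It was lower in Pn.ap in 4 of 4 libraries (mean log2 ratio -0.18, exact sign-flip permutation test, two-sided p = 0.13, the smallest that 4 libraries allow). The mean count per cell was not (mean log2 ratio 0.024, p = 0.875 by the same exact test). Among cells with at least 1000 UMIs the mean log2 ratio of medians was -0.077 (p = 0.25 by the same exact test). In those cells the library of 15.5 to 18.5 hph went the other way (log2 ratio 0.025). Of 38119 barcodes in these libraries 134 occurred in more than 1 library, and 36 sister cells carried such a barcode. How the classes were assigned is not given in the sources used here. If the annotation was made from these counts, the tests describe how the annotated classes differ and are not independent evidence that they differ.

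Of the 3 markers proposed for the sisters, unc-55 and unc-30 were higher in Pn.ap and unc-3 fell short of the fold change that a call required. unc-55 stood at 661, 729, 525 and 529 counts per 1000000 UMIs (CPM) in Pn.ap and at 10.1, 16.5, 3.44 and 14.8 CPM in Pn.aa. Every Pn.ap value lay above every Pn.aa value and above the mother class Pn.a, at 18.3 to 49.6 CPM. The difference was tested with edgeR, as were all below (log2 fold change 5.57 ± 0.20 SE, adjusted p = 3.63e-07; fold changes are log2, Pn.ap over Pn.aa, unless said otherwise). unc-30 stood at 49.6, 1618, 2522 and 1747 CPM in Pn.ap and at 0, 46.2, 0 and 65.8 CPM in Pn.aa. It was higher in Pn.ap in 4 of 4 libraries (log2 fold change 5.42 ± 0.44 SE, adjusted p = 1.52e-05), but its level in Pn.ap at 11 to 14 hph was below the highest Pn.aa value. The epidermal class Pn.p_lineage of the same libraries held 6.7, 80.1, 76.6 and 70 CPM of unc-30.

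unc-3 was low on both sides, at 7.58, 39.6, 75.7 and 114 CPM in Pn.aa and 6.55, 90.3, 146 and 187 CPM in Pn.ap. The groups overlapped, and the difference (log2 fold change 0.92 ± 0.15 SE, adjusted p = 0.00118) did not reach the log2 fold change of 1 that a call required. In the descendants unc-3 stood at 2179 to 3062 CPM in Pn.aaa, 1882 to 2612 in VA, 1663 to 1843 in VB and 2707 to 3070.4 in AS. It stood at 26.4 to 56.6 CPM in VC and 217 to 384 CPM in VD. High levels were thus found on both branches after the sister stage and in neither sister.

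**Figure D1:**
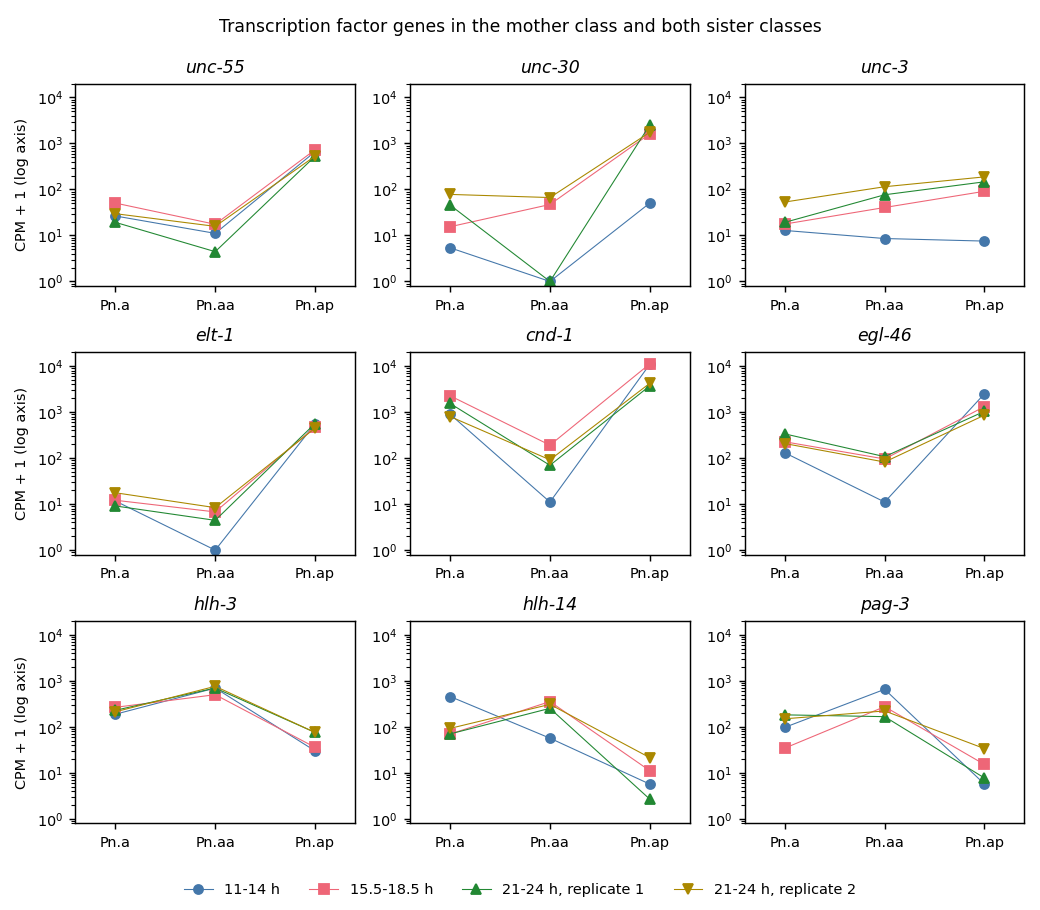
Levels of 9 transcription factor genes in Pn.a, Pn.aa and Pn.ap, as CPM plus 1 on a log axis, with 1 point and line per library. unc-55, elt-1, cnd-1 and egl-46 are higher in Pn.ap than in Pn.aa in all 4 libraries, hlh-3, hlh-14 and pag-3 are lower, and unc-3 stays under 200 CPM throughout.

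Single cells were compared after thinning each to 1000 UMIs, with Pn.p_lineage cells as a measure of background from free RNA. unc-55 was detected in 43.6, 48.1, 40.8 and 37.6% of Pn.ap cells, 0, 1.19, 0 and 1.29% of Pn.aa cells and 0.608, 4.45, 1.2 and 1.15% of Pn.p_lineage cells. unc-30 was detected in 2.3, 14.3, 31.7 and 32.1% of Pn.ap cells, 0, 0.594, 0 and 2.31% of Pn.aa cells and 0.304, 2.32, 1.72 and 2.86% of Pn.p_lineage cells. The exact 95% interval of the unc-30 share in Pn.ap lay above that of Pn.p_lineage in the later 3 libraries, and at 11 to 14 hph the intervals overlapped (0.928 to 4.67% against 0.0368 to 1.09%). The unc-55 share in Pn.ap was highest at 15.5 to 18.5 hph, and the unc-30 share was lowest in the youngest library.

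unc-3 was detected in 0.656, 3.9, 8.1 and 10.3% of Pn.ap cells and 0, 1.93, 7.69 and 7.2% of Pn.aa cells, against 0.456, 1.74, 1.72 and 4.81% of Pn.p_lineage cells. Cells of Pn.ap with both unc-30 and unc-3 numbered 1, 11, 13 and 40, or 0.328, 0.974, 4.58 and 4.73%, and 97.4, 82.8, 64.8 and 62.4% held neither. Among Pn.ap cells with unc-30, 14.3, 6.83, 14.4 and 14.8% also held unc-3, against 0.336, 3.41, 5.15 and 8.19% of those without it. At 11 to 14 hph that share is 1 of 7 cells. Thinned to 500 UMIs, the order turned at 15.5 to 18.5 hph, with unc-3 in 1.33% of the cells with unc-30 and 3.47% of the others. Pn.p_lineage cells showed the same order in 2 libraries, with 8.33% against 1.58% at 15.5 to 18.5 hph and 17.5% against 4.44% in replicate 2 of 21 to 24 hph. The part of free RNA or depth in this was not tested, and doublets were not called here. Thinning left out 58, 311, 80 and 71 Pn.ap cells and 13, 88, 8 and 11 Pn.aa cells that were shallower. Unthinned, unc-30 was detected in 2.2, 19.1, 34.1 and 36.7% of Pn.ap cells and unc-3 in 1.1, 6.94, 11.3 and 17.2%. Intervals cover counting error only.

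**Figure D2:**
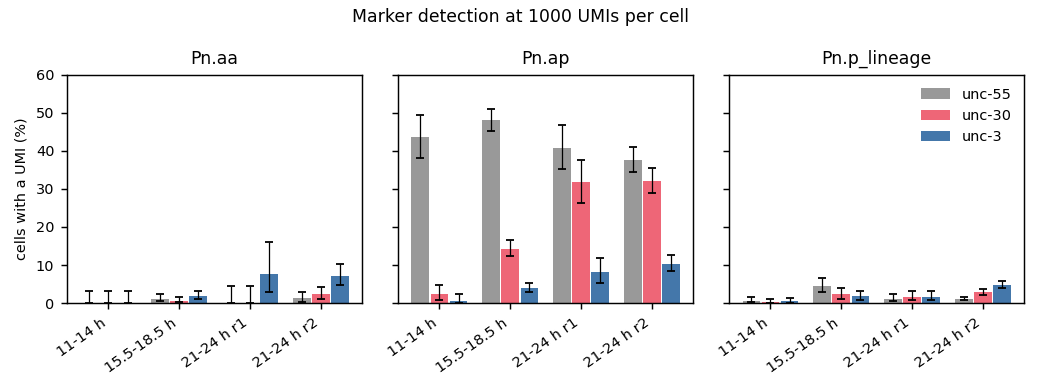
Share of cells with at least 1 UMI of unc-55, unc-30 or unc-3 in Pn.aa, Pn.ap and Pn.p_lineage by library, each cell thinned to 1000 UMIs; bars are percentages and error bars exact 95% binomial intervals. In Pn.ap unc-55 is detected in 37.6 to 48.1% of cells at every age, while unc-30 goes from 2.3% at 11 to 14 hph to 31.7 and 32.1% at 21 to 24 hph.

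Of 5957 genes tested 955 (16.0%) were called different between the sisters, at an adjusted p under 0.05 and a log2 fold change of at least 1. Of these, 580 (9.74%) were higher in Pn.ap and 375 (6.30%) were higher in Pn.aa, and the median fold change of all genes tested was -0.01. These shares are those to set beside each list count between the sisters below. In 721 of the 955 called genes the 4 values of one class did not overlap with those of the other, against 1250 of all 5957.

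On the Pn.ap side, the 12 genes with the smallest p included unc-55, the GATA factor elt-1, known for specifying epidermis in the embryo, and the nicotinic acetylcholine receptor subunit lev-1. elt-1 stood at 555, 473, 565 and 448 CPM in Pn.ap and at 0, 5.77, 3.44 and 7.39 CPM in Pn.aa. Every Pn.ap value was above every Pn.aa value (log2 fold change 6.50 ± 0.27 SE, adjusted p = 4.95e-07). elt-1 was also found in the progeny of Pn.ap, at 339 to 409 CPM in AS and 189 to 250.1 CPM in VD, and stood at 8.15 to 31.2 CPM in Pn.p_lineage and 0 to 32.1 CPM in the class Epidermis. Beside it the epidermal gene list held elt-6, a second GATA gene, at 129.1, 79.4, 274 and 125 CPM in Pn.ap and 5.06, 14, 13.8 and 11.8 CPM in Pn.aa (log2 fold change 3.39 ± 0.25 SE, adjusted p = 8.62e-06). The apical junction genes dlg-1 and ajm-1 of that list went the other way (-2.92 and -1.40). Without elt-1 the 9 epidermal genes measured summed to 120 to 328 CPM in Pn.ap, 108 to 145 CPM in Pn.aa and 560 to 833 CPM in Pn.p_lineage, and their part in these results was not tested.

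lev-1 stood at 213, 266, 136 and 149.6 CPM in Pn.ap and 0, 5.77, 0 and 2.22 CPM in Pn.aa (log2 fold change 6.05 ± 0.27 SE, adjusted p = 9.14e-07). Its level in VD was 183 to 395 CPM and in AS 12.1 to 25.4 CPM. syg-2, an immunoglobulin-family adhesion protein, was at 363 to 628 CPM in Pn.ap and 6.88 to 16.3 CPM in Pn.aa (log2 fold change 5.17 ± 0.22 SE, adjusted p = 6.01e-07). The calponin gene cpn-1 was at 921 to 1189 CPM in Pn.ap and 82.6 to 129.5 CPM in Pn.aa (log2 fold change 3.44 ± 0.14 SE, adjusted p = 4.95e-07). The other 7 are known here by sequence name alone: ZK177.11, F43G6.4, W01C8.5, R04B3.2, F39B2.3, F36H1.11 and T23B12.11. ZK177.11, with the widest fold change of the 12, was at 131, 268, 75.4 and 172 CPM in Pn.ap and 0, 1.65, 0 and 1.48 CPM in Pn.aa (log2 fold change 7.25 ± 0.26 SE, adjusted p = 3.63e-07). F43G6.4 was at 1554, 1515, 1508 and 1619 CPM in Pn.ap and 7.58, 12.4, 31 and 21.4 CPM in Pn.aa (log2 fold change 6.54 ± 0.24 SE, adjusted p = 3.63e-07). All 12 were higher in Pn.ap in 4 of 4 libraries, with no overlap between the classes.

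On the Pn.aa side, the 12 genes with the smallest p included hlh-3, ceh-6, tkr-3 and flp-19, the helicase subunit mcm-3 and the sister chromatid cohesion factor ctf-8. hlh-3, an achaete-scute proneural factor, stood at 695, 498, 695 and 758 CPM in Pn.aa and 29, 34.8, 74.6 and 74.2 CPM in Pn.ap (log2 fold change -3.64 ± 0.19 SE, adjusted p = 1.65e-06). Pn.a lay between them, at 187 to 264 CPM. ceh-6, a POU homeodomain factor, stood at 1608, 1466, 589 and 771 CPM in Pn.aa and 101, 121.9, 48.6 and 112 CPM in Pn.ap (log2 fold change -3.42 ± 0.19 SE, adjusted p = 1.87e-06). Against Pn.a, ceh-6 in Pn.aa did not pass the test (log2 fold change -0.17 ± 0.18 SE, adjusted p = 0.559), whereas Pn.ap was lower (log2 fold change -3.57 ± 0.21 SE, adjusted p = 1.75e-07).

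The tachykinin receptor gene tkr-3 was at 157, 235, 238 and 273 CPM in Pn.aa, 10.3 to 25.3 CPM in Pn.ap and 1.58 to 17.8 CPM in Pn.a (log2 fold change -3.54 ± 0.13 SE, adjusted p = 3.63e-07). The FMRFamide-like peptide gene flp-19 was at 387, 416, 89.5 and 199 CPM in Pn.aa, 12.6 to 64.8 CPM in Pn.ap and 28.8 to 77.3 CPM in Pn.a (log2 fold change -2.85 ± 0.16 SE, adjusted p = 1.87e-06). C10B5.3, known by sequence name alone, was at 316, 185, 89.5 and 277 CPM in Pn.aa, 0.838 to 9.36 CPM in Pn.ap and 1.67 to 10.2 CPM in Pn.a (log2 fold change -5.24 ± 0.19 SE, adjusted p = 3.63e-07). These 3 genes were raised in Pn.aa over both its mother and its sister. So were C45G7.4 (5.18 over Pn.a and -5.10 between the sisters), DH11.5 (3.28 and -4.52), tpra-1 (1.91 and -3.35) and M01H9.4 (5.61 and -4.74). M01H9.4 overlaps another measured gene on the same strand, so its UMIs may not all be its own. C17G1.5 was called between the sisters (-2.68). In all 12 the Pn.aa value was the higher in 4 of 4 libraries, with no overlap.

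Proneural and neuroblast regulators split between the sisters: of 8 tested among 16 listed, 3 were higher in Pn.ap and 3 in Pn.aa. cnd-1, a NeuroD-type factor, stood at 10940.4, 11189, 3726 and 4239 CPM in Pn.ap and 10.1, 191, 68.8 and 90.9 CPM in Pn.aa (log2 fold change 6.33 ± 0.51 SE, adjusted p = 1.43e-05). Pn.a held 898, 2267, 1541 and 801 CPM, so Pn.ap stood above its mother and Pn.aa below it (2.53 and -3.79 over Pn.a, both called). ces-1, a Snail-type zinc finger, stood at 2451, 3090.5, 1091 and 1285 CPM in Pn.ap and 10.1, 101, 6.88 and 29.6 CPM in Pn.aa (log2 fold change 5.73 ± 0.35 SE, adjusted p = 2.9e-06). ngn-1, a neurogenin, was low, at 0.936, 13, 45.3 and 41.9 CPM in Pn.ap and 0, 9.9, 0 and 2.96 CPM in Pn.aa (log2 fold change 2.37 ± 0.62 SE, adjusted p = 0.0154). It lost its call without replicate 2 of 21 to 24 hph (1.46, adjusted p = 0.215). On the Pn.aa side were hlh-3, a second achaete-scute factor, hlh-14, and their E-protein partner hlh-2. hlh-14 stood at 55.6, 353, 251 and 307 CPM in Pn.aa and 4.68, 10.1, 1.68 and 20.4 CPM in Pn.ap (log2 fold change -4.55 ± 0.31 SE, adjusted p = 6.1e-06). hlh-2 stood at 1349.7, 751, 668 and 670.1 CPM in Pn.aa and 633, 366, 306 and 328 CPM in Pn.ap (log2 fold change -1.03 ± 0.10 SE, adjusted p = 5.34e-05), and lay just under the fold threshold without replicate 1 of 21 to 24 hph (adjusted p = 0.00014).

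Of 18 motor neuron identity factors 11 were tested, 6 were higher in Pn.ap and 1 in Pn.aa, with a median fold change of 1.39 over the 11. Beside unc-30 and unc-55 the higher 6 were mab-9, egl-46, irx-1 and sem-4. mab-9, a T-box factor, stood at 0, 268, 509.5 and 518 CPM in Pn.ap and 0, 9.07, 0 and 52.5 CPM in Pn.aa (log2 fold change 4.13 ± 0.40 SE, adjusted p = 8.29e-05), with no UMI on either side in the youngest library. Its call was lost with DESeq2 (4.23, adjusted p = 0.0928) and without the replicate block (4.04, adjusted p = 0.0511). It was then at 2345 to 3147 CPM in AS and 2376 to 3182 CPM in VD. egl-46, a zinc finger factor, stood at 2514, 1322, 1042 and 859.7 CPM in Pn.ap and 10.1, 94.8, 107 and 81.3 CPM in Pn.aa (log2 fold change 4.13 ± 0.47 SE, adjusted p = 0.000125). In the next generation the order turned: egl-46 stood at 1680.2 to 3319.8 CPM in Pn.aaa and 573 to 1081 in VA, but at 0 to 17.5 in AS and 18.1 to 51.7 in VD. AS and VD together were lower than VA, VB and VC (log2 fold change -2.75 ± 0.24 SE, adjusted p = 4.47e-05).

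irx-1, an Iroquois factor whose reads may be shared with an overlapping gene, was at 57.1, 26.7, 24.3 and 23 CPM in Pn.ap and 2.53, 4.95, 6.88 and 8.87 CPM in Pn.aa (log2 fold change 2.21 ± 0.38 SE, adjusted p = 0.00153). Pn.a held 113, 46.8, 36.6 and 50.6 CPM. Against Pn.a, irx-1 was called lower in Pn.aa (log2 fold change -3.10 ± 0.31 SE, adjusted p = 2.45e-05), while in Pn.ap it was below Pn.a by less than the fold threshold (log2 fold change -0.89 ± 0.20 SE, adjusted p = 0.00292). sem-4, a Spalt-type zinc finger, was at 5.61, 26.7, 36.9 and 61.4 CPM in Pn.ap and 10.1, 12.4, 17.2 and 16.3 CPM in Pn.aa (log2 fold change 1.39 ± 0.31 SE, adjusted p = 0.00726), and lost its call without replicate 2 of 21 to 24 hph (0.85, adjusted p = 0.194). The exception among the identity factors was pag-3, a zinc finger factor known to be needed in the Pn.aa branch of this lineage. It stood at 652, 273, 165 and 220.2 CPM in Pn.aa and 4.68, 14.2, 6.7 and 32.6 CPM in Pn.ap (log2 fold change -4.05 ± 0.44 SE, adjusted p = 8.57e-05). unc-4, a factor of VA and VC, did not pass the test, at 0 to 30.3 CPM in Pn.aa and 0.838 to 37.6 CPM in Pn.ap. bnc-1 and vab-7 were under the count filter.

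Genes of DNA replication were lower in Pn.ap: of 23 listed, all of them tested, 18 were lower and none higher, with a median fold change of -1.48. Across the alternatives at the same fold threshold 16 to 20 were lower. mcm-3, a subunit of the replicative helicase, stood at 399, 215, 313 and 282 CPM in Pn.aa, 282, 224, 313 and 235 CPM in Pn.a and 89.8, 52.6, 59.5 and 53 CPM in Pn.ap (log2 fold change -2.2 ± 0.12 SE, adjusted p = 1.74e-06). The other helicase subunits mcm-2, mcm-4, mcm-5, mcm-6 and mcm-7 had fold changes of -2.24, -1.48, -1.89, -2.76 and -3.15. rnr-1, the large subunit of ribonucleotide reductase, stood at 1398, 821, 1163 and 1014 CPM in Pn.aa and 287, 159, 87.2 and 120.2 CPM in Pn.ap (log2 fold change -2.79 ± 0.23 SE, adjusted p = 1.68e-05). The sliding clamp pcn-1 (-2.17), the origin factors orc-1 (-2.37) and cdt-1 (-1.73) and the thymidylate synthase tyms-1 (-1.79) were also called. Against the mother class, 15 of the 23 were lower in Pn.ap and none higher (median -1.39), where 9.36% of all genes tested were lower. In Pn.aa 1 was lower and none higher (median 0.12), where 6.30% of all were lower. mcm-3 in Pn.aa did not pass the test against Pn.a (log2 fold change 0.22 ± 0.11 SE, adjusted p = 0.183). Calls between the sisters were lost without replicate 2 of 21 to 24 hph for orc-4 (-1.23, adjusted p = 0.0862) and cye-1 (-0.98, adjusted p = 0.0459), the latter also without replicate 1 (-0.99, adjusted p = 0.00873).

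Of 23 mitotic genes tested among 25, 9 were lower in Pn.ap and none higher, with a median of -0.80. The mitotic kinase cdk-1 stood at 1774, 1271, 960.4 and 1015 CPM in Pn.aa and 863, 502, 297 and 349 CPM in Pn.ap (log2 fold change -1.36 ± 0.14 SE, adjusted p = 5.58e-05). The kinases plk-1 (-1.18), air-2 (-1.23), bub-1 (-1.35) and air-1 (-1.39) were also called, and air-1 may share reads with overlapping genes. The condensin subunits smc-4 (-1.38) and mix-1 (-1.10), the chromosomal passenger icp-1 (-1.33) and the centromeric histone hcp-3 (-1.06) completed the 9. hcp-3 fell under the fold threshold without replicate 1 of 21 to 24 hph (-0.95, adjusted p = 0.000165).

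Genes of G1 and cell cycle exit were called in both directions, 3 each of 10. The D-type cyclin cyd-1 had the widest change among the cell cycle genes listed. It stood at 1039, 673, 651 and 587 CPM in Pn.aa, 930.0, 473, 545 and 433 CPM in Pn.a and 42.1, 23.5, 1.68 and 21.3 CPM in Pn.ap (log2 fold change -5.03 ± 0.33 SE, adjusted p = 5.13e-06, or 32.6-fold). Thinned to 1000 UMIs, 64, 45.3, 46.2 and 40.4% of Pn.aa cells held a cyd-1 UMI, against 2.62, 1.51, 0 and 1.07% of Pn.ap cells. The share in Pn.ap was below that of Pn.p_lineage, 19.8, 4.45, 2.06 and 1.91%. That class is not a plain measure of background for a cell cycle gene. Its 23 replication genes summed to 3296, 1158, 432 and 405 CPM. The Rb homologue lin-35 (-1.29) and the E2F factor efl-1 (-1.12) were also lower in Pn.ap, and efl-1 fell under the fold threshold without replicate 2 of 21 to 24 hph (-0.97, adjusted p = 0.00386).

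On the other side stood cdk-4, the kinase partner of cyd-1, at 108, 59.1, 36.9 and 46 CPM in Pn.ap and 17.7, 39.6, 17.2 and 30.3 CPM in Pn.aa (log2 fold change 1.01 ± 0.27 SE, adjusted p = 0.0183). Its call was lost without the library of 11 to 14 hph (0.67, adjusted p = 0.0192), without replicate 1 of 21 to 24 hph (0.99, adjusted p = 0.0221) and with equal numbers of cells (0.94, adjusted p = 0.0288). fzr-1, an activator of the anaphase-promoting complex in G1, was called (1.04) and fell under the fold threshold without replicate 1 of 21 to 24 hph (0.91, adjusted p = 0.000443). cki-2, an inhibitor of cyclin-dependent kinases, was called (log2 fold change 1.04 ± 0.25 SE, adjusted p = 0.00948), but not without the library of 11 to 14 hph (0.99, adjusted p = 0.015) or that of 15.5 to 18.5 hph (0.87, adjusted p = 0.0698). Its paralogue cki-1 stood at 194 to 377 CPM in Pn.a, 872, 818, 1153 and 1135 CPM in Pn.aa and 1877, 1454, 1270.4 and 1629.8 CPM in Pn.ap. It was higher than in Pn.a in both sisters (log2 fold change 1.86 ± 0.18 SE, adjusted p = 1.88e-05 in Pn.aa and log2 fold change 2.56 ± 0.18 SE, adjusted p = 6.82e-07 in Pn.ap), and between them its change was under the fold threshold (0.69).

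**Figure D3:**
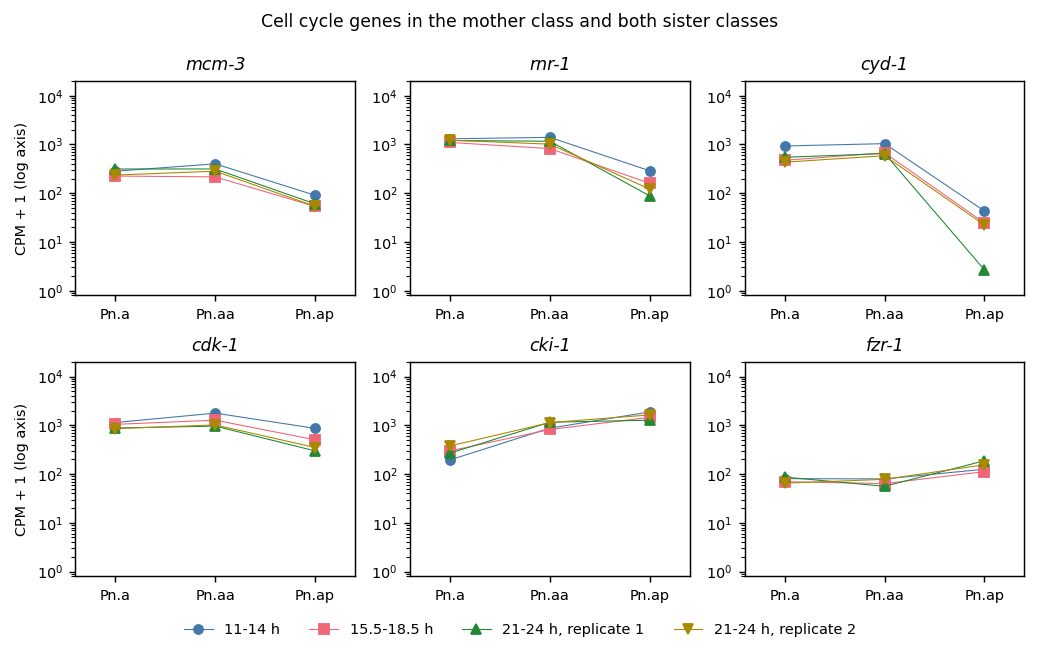
Levels of 6 cell cycle genes in Pn.a, Pn.aa and Pn.ap, as CPM plus 1 on a log axis, with 1 point and line per library. mcm-3, rnr-1, cyd-1 and cdk-1 are lower in Pn.ap than in Pn.aa in all 4 libraries, and cki-1 is above Pn.a in both sisters.

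Of 8 Notch pathway genes tested among 16, 2 were lower in Pn.ap and none higher, both of them ligands or co-ligands. Over all genes tested the share lower in Pn.ap was 6.30%. The ligand lag-2 stood at 1001, 1030.1, 895 and 1018 CPM in Pn.aa and 177, 335, 265 and 281 CPM in Pn.ap (log2 fold change -1.88 ± 0.15 SE, adjusted p = 1.3e-05). dos-1, a secreted or membrane protein with the DOS motif of Notch co-ligands, stood at 12.6, 14, 17.2 and 10.3 CPM in Pn.aa and 0.936, 0.81, 0 and 0.582 CPM in Pn.ap (log2 fold change -4.15 ± 0.48 SE, adjusted p = 0.00013). The receptor lin-12 was under the count filter between the sisters, at 2.53, 2.47, 6.88 and 2.22 CPM in Pn.aa, 59, 32, 0.838 and 6.7 CPM in Pn.ap and 72.9, 26.8, 12.2 and 52.9 CPM in Pn.a. In the fit with Pn.a it was lower in Pn.aa (log2 fold change -3.85 ± 0.78 SE, adjusted p = 0.00356) and did not pass the test in Pn.ap (log2 fold change -0.93 ± 0.45 SE, adjusted p = 0.114).

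Of 23 Wnt pathway genes tested among 28, 7 were higher in Pn.ap and 1 lower, with a median of 0.33. Over all genes tested 9.74% were higher and 6.30% lower. The beta-catenin bar-1 stood at 476, 221, 88.8 and 115.3 CPM in Pn.ap and 10.1, 9.07, 13.8 and 10.3 CPM in Pn.aa (log2 fold change 4.27 ± 0.28 SE, adjusted p = 5.54e-06). wrm-1, a beta-catenin of the Wnt asymmetry pathway, was the 1 gene lower in Pn.ap, at 100.1, 66, 43.6 and 72.8 CPM there and 318, 208, 186 and 207 CPM in Pn.aa (log2 fold change -1.64 ± 0.12 SE, adjusted p = 1.04e-05). bar-1 and wrm-1 were thus called in opposite directions, and the beta-catenin sys-1 was under the fold threshold (log2 fold change -0.36 ± 0.12 SE, adjusted p = 0.0471). Receptors higher in Pn.ap were the Frizzled proteins mig-1 (2.35) and lin-17 (1.03), the Ryk protein lin-18 (1.53) and the Ror protein cam-1 (1.47). The scaffolds pry-1, an Axin, and apr-1, an APC protein, were higher as well (1.94 and 1.58). lin-17 lost its call without replicate 2 of 21 to 24 hph (0.75, adjusted p = 0.025). The TCF factor pop-1 was under the fold threshold (log2 fold change 0.73 ± 0.12 SE, adjusted p = 0.00156).

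Where 6.30% of all genes tested were lower in Pn.ap, 4 of 17 polarity genes tested among 18 were lower and none higher. They were the spindle regulators lin-5, a NuMA-like protein (-1.11), and gpr-1 (-1.28), the cortical protein par-3 (-1.28) and toe-2, a DEP domain protein of asymmetric neuroblast divisions (-1.37). par-3 lost its call without the library of 11 to 14 hph (-1.16, adjusted p = 0.0514), that of 15.5 to 18.5 hph (-1.19, adjusted p = 0.184) or replicate 1 of 21 to 24 hph (-1.11, adjusted p = 0.0618).

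Of 6 Hox genes and cofactors tested among 9, 2 were higher in Pn.ap, where 9.74% of all genes tested were higher. The labial-type gene ceh-13 stood at 1542, 1103, 653 and 732 CPM in Pn.ap, 366, 305, 234 and 186 CPM in Pn.aa and 46.8 to 85.1 CPM in Pn.a (log2 fold change 1.90 ± 0.13 SE, adjusted p = 6.95e-06). The Abdominal-B-type gene egl-5 was at 0, 19.8, 193 and 229 CPM in Pn.ap and 0, 5.77, 3.44 and 14.8 CPM in Pn.aa (log2 fold change 3.77 ± 0.36 SE, adjusted p = 7.76e-05), a call lost without the replicate block (3.84, adjusted p = 0.0624). lin-39, which acts in the midbody part of the lineage, did not pass the test, at 1136 to 1339.6 CPM in Pn.aa and 1011 to 1697 CPM in Pn.ap (log2 fold change 0.14 ± 0.14 SE, adjusted p = 0.509). Nor did mab-5, at 27.8 to 255 CPM in Pn.aa and 38.4 to 300.4 CPM in Pn.ap (log2 fold change 0.28 ± 0.12 SE, adjusted p = 0.0948). Each class pools cells of all positions along the cord.

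The heterochronic factors lin-29, hbl-1 and lin-14, which time larval development, were higher in Pn.ap, 3 of 5 tested among 8. hbl-1 stood at 458, 453, 524 and 551 CPM in Pn.ap and 78.4, 114.6, 165 and 126 CPM in Pn.aa (log2 fold change 2.1 ± 0.15 SE, adjusted p = 7.21e-06). lin-29 stood at 45.9, 53.4, 35.2 and 27.7 CPM in Pn.ap and 2.53, 4.95, 6.88 and 5.91 CPM in Pn.aa (log2 fold change 2.95 ± 0.31 SE, adjusted p = 7.72e-05). lin-14 had a fold change of 1.34, which was not called without the replicate block (1.33, adjusted p = 0.177). Of 5 cell death genes tested, the BH3-only gene egl-1 (log2 fold change -1.45 ± 0.38 SE, adjusted p = 0.0167) and the caspase ced-3 (log2 fold change -1.04 ± 0.31 SE, adjusted p = 0.0292) were higher in Pn.aa. Over all genes tested 6.30% were higher in Pn.aa. egl-1 stood at 0, 25.6, 44.7 and 40.6 CPM in Pn.aa and 1.87, 15, 5.87 and 12.5 CPM in Pn.ap, with overlap, and at 268 to 743 CPM in VC. Without replicate 2 of 21 to 24 hph egl-1 (-1.30, adjusted p = 0.158) and ced-3 (-1.09, adjusted p = 0.0961) lost their calls, and ced-3 did so without the library of 15.5 to 18.5 hph (-0.72, adjusted p = 0.235) or replicate 1 (-0.96, adjusted p = 0.0525) as well.

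Neuronal genes that changed were mostly higher in Pn.ap: of 23 pan-neuronal genes tested among 28, 8 were higher and 1 lower, with a median of 0.74. Without the replicate block 3 were higher. unc-33, a CRMP-type protein of axon growth, stood at 121.7, 179, 416 and 303 CPM in Pn.ap and 22.7, 43.7, 58.5 and 51.7 CPM in Pn.aa (log2 fold change 2.46 ± 0.15 SE, adjusted p = 2.9e-06). The ankyrin unc-44 stood at 1029, 1292, 1602 and 1728 CPM in Pn.ap and 281, 310.1, 258 and 323 CPM in Pn.aa (log2 fold change 2.28 ± 0.14 SE, adjusted p = 3.57e-06). Neither gene's groups overlapped. The active zone protein cla-1 (2.22) and the clathrin adaptor unc-11 (1.77) were also higher, unc-11 not without the block (1.88, adjusted p = 0.0976). rab-3, a synaptic vesicle GTPase, stood at 91.7, 381, 301 and 424 CPM in Pn.ap and 58.1, 52, 0 and 154 CPM in Pn.aa, with overlap (log2 fold change 2.19 ± 0.43 SE, adjusted p = 0.00357). Its call was lost with DESeq2 (2.72, adjusted p = 0.081), with a robust spread (2.19, adjusted p = 0.0858) and without the block (2.12, adjusted p = 0.0607).

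The vesicle protein sng-1 (1.59), the kinesin unc-104 (1.31) and the neuropeptide convertase egl-3 (1.07) were higher too, but not with every library left out. Without replicate 2 of 21 to 24 hph sng-1 (0.87, adjusted p = 0.457) and unc-104 (1.08, adjusted p = 0.0615) lost their calls, and without the library of 15.5 to 18.5 hph sng-1 (1.56, adjusted p = 0.154) and egl-3 (1.05, adjusted p = 0.0929) did. unc-10, a presynaptic RIM protein, was the 1 gene higher in Pn.aa, at 235, 155, 41.3 and 87.9 CPM in Pn.aa and 15.9, 17, 17.6 and 33.8 CPM in Pn.ap (log2 fold change -2.38 ± 0.36 SE, adjusted p = 0.000692). Against the mother class 15 of 24 pan-neuronal genes were higher in Pn.ap (median 1.72) and 5 in Pn.aa (median 0.55), and none was lower in either. Of all genes tested against Pn.a, 10.9% were higher in Pn.ap and 4.52% in Pn.aa. unc-10 was higher than in Pn.a in both sisters (4.08 in Pn.aa and 1.62 in Pn.ap), though in Pn.ap that call was lost under 3 of 13 alternatives, without the block among them.

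Transmitter genes were low in both sisters, with the exception of unc-25 in replicate 2 of 21 to 24 hph. The GABA synthesis enzyme unc-25 stood at 0.936, 16.2, 46.1 and 682 CPM in Pn.ap and 0, 63.5, 0 and 250.5 CPM in Pn.aa (log2 fold change 0.56 ± 0.60 SE, adjusted p = 0.543). In the same libraries Pn.p_lineage held 0.291, 65.1, 66.3 and 218 CPM, Epidermis 0, 29.6, 619 and 436 CPM and VD 18672 to 36494 CPM. The GABA transporter snf-11 was at 3.74, 18.6, 27.7 and 26.8 CPM in Pn.ap and 7.58, 9.9, 3.44 and 8.13 CPM in Pn.aa (log2 fold change 1.33 ± 0.39 SE, adjusted p = 0.0274), and lost its call without replicate 2 of 21 to 24 hph (1.04, adjusted p = 0.231). The immunoglobulin protein oig-1, known from the timing of D neuron synapses, was at 0, 11.7, 9.22 and 90 CPM in Pn.ap and 0, 6.6, 0 and 17 CPM in Pn.aa (log2 fold change 2.07 ± 0.38 SE, adjusted p = 0.00335), and was not called without the replicate block (1.87, adjusted p = 0.333). Without replicate 2 of 21 to 24 hph, where it was highest, oig-1 was under the count filter. Neither gene exceeded 100 CPM in a sister sum.

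unc-17, the vesicular acetylcholine transporter, was at 0 to 18.5 CPM in Pn.aa and 0 to 5.82 CPM in Pn.ap, against 638 to 814 CPM in VB. It may share reads with cha-1, which overlaps it on the same strand. ric-3, a chaperone of acetylcholine receptors, was the 1 gene called of 3 acetylcholine genes tested among 17. It stood at 160.0, 276, 616 and 548 CPM in Pn.ap and 131, 114.6, 120.5 and 182 CPM in Pn.aa (log2 fold change 1.43 ± 0.24 SE, adjusted p = 0.00128).

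Of 28 axon guidance and adhesion genes tested among 37, 12 were higher in Pn.ap and 3 lower, with a median of 0.76. Beside syg-2, the lamellipodin mig-10 stood at 450.1, 242, 228 and 220.1 CPM in Pn.ap and 10.1, 34.6, 27.5 and 31.8 CPM in Pn.aa (log2 fold change 3.22 ± 0.28 SE, adjusted p = 2.14e-05). The plexin plx-2 stood at 38.4 to 77.4 CPM in Pn.ap and 2.53 to 21.4 CPM in Pn.aa (log2 fold change 2.4 ± 0.28 SE, adjusted p = 0.000136). The netrin unc-6 stood at 20.6, 86.6, 92.2 and 99.3 CPM in Pn.ap and 7.58, 8.25, 17.2 and 50.2 CPM in Pn.aa (log2 fold change 1.84 ± 0.34 SE, adjusted p = 0.00249), a call lost without the replicate block (1.73, adjusted p = 0.083). The Robo receptor sax-3 (1.21), the Eph receptor vab-1 (1.70), the semaphorin smp-1 (1.39), the LAR-type phosphatase ptp-3 (1.21) and the ADAM protein unc-71 (1.24) were also higher. The netrin receptor unc-5 (1.29), the plexin plx-1 (1.13) and max-1 (1.63), which may share reads with an overlapping gene, completed the 12. These last 3 lost their calls without replicate 2 of 21 to 24 hph (0.80, adjusted p = 0.338 for unc-5; 0.87, adjusted p = 0.167 for plx-1; 1.36, adjusted p = 0.0817 for max-1). They did so without the library of 15.5 to 18.5 hph as well (1.31, adjusted p = 0.0624 for unc-5; 1.13, adjusted p = 0.0948 for plx-1; 1.40, adjusted p = 0.0714 for max-1).

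In the other direction the L1-type adhesion gene lad-2 stood at 40.4, 17.3, 20.7 and 32.5 CPM in Pn.aa and 0, 0.405, 1.68 and 1.75 CPM in Pn.ap (log2 fold change -4.52 ± 0.44 SE, adjusted p = 4.41e-05). The punctin madd-4, a secreted guidance and synapse protein, stood at 564, 407, 127 and 279 CPM in Pn.aa and 26.2, 29.2, 18.4 and 144 CPM in Pn.ap (log2 fold change -2.74 ± 0.49 SE, adjusted p = 0.002), a call lost with a robust spread (-2.74, adjusted p = 0.0686). The ephrin vab-2, a ligand of vab-1, was lower in Pn.ap (log2 fold change -1.59 ± 0.33 SE, adjusted p = 0.00437), so ligand and receptor were called in opposite directions, though vab-2 was not called without the replicate block (-1.40, adjusted p = 0.211).

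**Figure D4:**
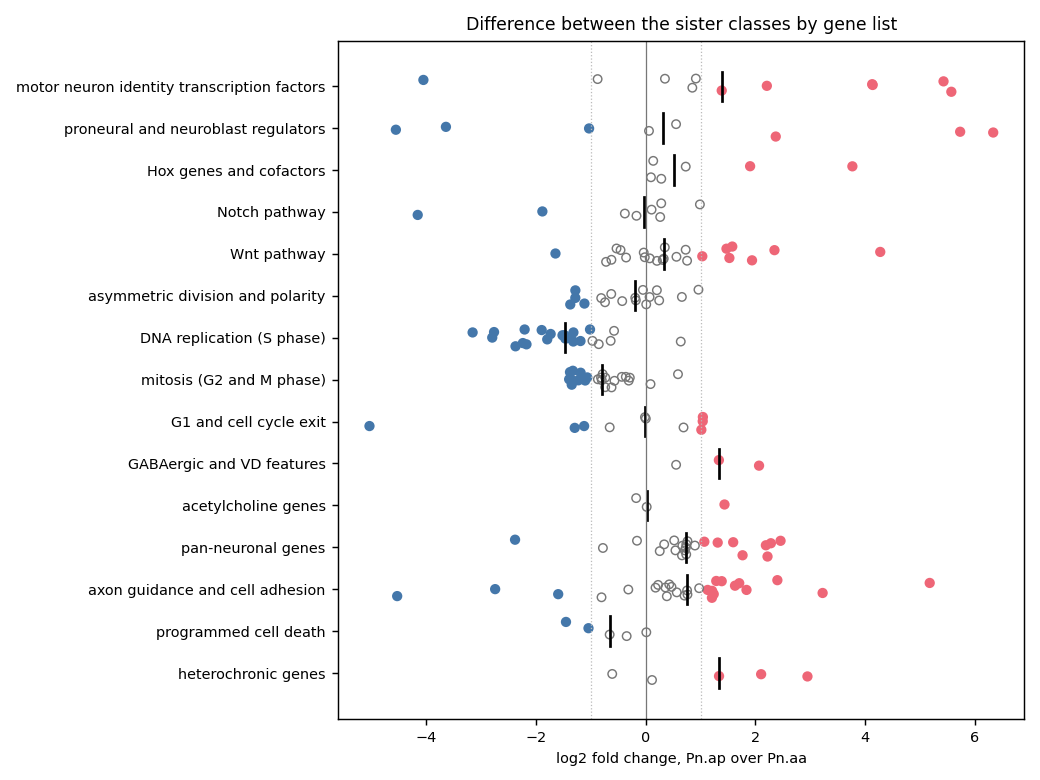
Log2 fold change, Pn.ap over Pn.aa, of each tested gene by list. Filled points were called, at an adjusted p under 0.05 and a log2 fold change of at least 1 in either direction. Open points were not called, some of them only because of the fold threshold. Black bars are list medians and dotted lines mark a log2 fold change of 1 in either direction. The replication genes have a median of -1.48 with no member called higher, while motor neuron factors, pan-neuronal and guidance genes have medians of 1.39, 0.74 and 0.76.

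Markers of muscle, gut, germline, coelomocytes and pharynx were near 0 in both sisters, with the exception of unc-54. This body wall muscle myosin stood at 28609.7, 24761, 65359 and 44425 CPM in Pn.aa and 7312, 7533, 12333 and 9901 CPM in Pn.ap (log2 fold change -2.02 ± 0.16 SE, adjusted p = 1.37e-05). Each of these values was above every value in the class Body_wall_muscle, 3255 to 7078 CPM, and Pn.a held 23644 to 29903 CPM. The other muscle genes summed to 3.44 to 65.0 CPM in Pn.aa and 25.3 to 44.4 CPM in Pn.ap. The defining muscle genes myo-3, unc-15 and mup-2 were at most 1.48, 10.1 and 8.87 CPM in any sister sum, against 1163 to 2262 CPM of myo-3 in muscle. The source of the unc-54 UMIs was not tested, so they are not shown to be expression of the muscle gene in the sisters. Leaving unc-54 out of the sums gave 962 calls between the sisters.

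vab-10, of which a part is in the sorting reporter, stood at 3599, 3483, 8247 and 6104 CPM in Pn.aa and 1144, 1300.1, 1829 and 1806 CPM in Pn.ap (log2 fold change -1.71 ± 0.15 SE, adjusted p = 2.36e-05), and reads of the reporter and of the gene cannot be told apart here. The intestinal, germline, coelomocyte and pharyngeal lists summed to at most 2.51, 6.88, 3.30 and 5.82 CPM in any sister sum. Of the glial list hlh-17 was called lower in Pn.ap (log2 fold change -1.11 ± 0.35 SE, adjusted p = 0.0378), but not without the library of 11 to 14 hph (-0.93, adjusted p = 0.0423), that of 15.5 to 18.5 hph (-0.78, adjusted p = 0.31) or replicate 2 of 21 to 24 hph (-1.41, adjusted p = 0.0939).

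The mother class Pn.a was compared with each sister in 1 fit, so both contrasts share the Pn.a sums. Against Pn.a, 687 of 6349 genes were called in Pn.aa (10.8%), 287 higher (4.52%) and 400 lower (6.30%). In Pn.ap 1283 were called (20.2%), 689 higher (10.9%) and 594 lower (9.36%). With equal numbers of cells of the 3 classes in each library the counts were 641 and 1174. Genes with the smallest p that fell in both sisters were the lipocalin-related gene lpr-4 (-5.73 in Pn.aa and -6.50 in Pn.ap), the Skp1-related gene skr-10 (-5.17 and -5.91) and H03E18.1 (-4.12 and -3.85). M176.5 rose in both (3.14 and 3.01). fmi-1, the Flamingo cadherin, also rose in both, to 676, 1584, 1266 and 1383 CPM in Pn.ap and 111, 277, 251 and 293 CPM in Pn.aa from 35.8 to 149.6 CPM in Pn.a, though in Pn.aa it was not called without the replicate block. Between the sisters it was called higher in Pn.ap (log2 fold change 2.45 ± 0.12 SE, adjusted p = 1.31e-06).

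Several genes moved in opposite directions from the mother class. F43G6.4 rose in Pn.ap and fell in Pn.aa (3.87 and -2.76), and so did syg-2 (1.90 and -3.35), bar-1 (2.12 and -2.16) and mig-10 (1.10 and -2.16). Without replicate 1 of 21 to 24 hph mig-10 in Pn.ap was no longer called. hlh-3 fell in Pn.ap and rose in Pn.aa (-2.05 and 1.56). egl-46 was called higher in Pn.ap and lower in Pn.aa (2.80 and -1.42), but the call in Pn.aa was lost under 6 of 13 alternatives, with an adjusted p of up to 0.148. pag-3 was called lower in Pn.ap and higher in Pn.aa (-2.46 and 1.70), and the call in Pn.aa was lost under 5 of 13, with an adjusted p of up to 0.175. For both genes these were DESeq2, the robust spread, the fit without the block and left-out libraries: for egl-46 that of 15.5 to 18.5 hph and each of 21 to 24 hph, and for pag-3 those of 11 to 14 and 15.5 to 18.5 hph. ceh-13 and ric-3 rose in both (3.92 and 2.02 for ceh-13, 3.50 and 2.05 for ric-3).

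The neurons of the Pn.ap branch, AS and VD (6223 cells), were set against those of the Pn.aa branch, VA, VB and VC (4594 cells), in the 3 libraries that held both. Of 7751 genes tested 1996 were called (25.8%), 940 (12.1%) higher in AS and VD and 1056 (13.6%) in VA, VB and VC. Of the 570 genes higher in Pn.ap that were tested there, 230 (40.4%) were also higher in AS and VD, and these were 52.9% of the 435 AS and VD genes tested in the sisters. In the opposite direction were 34 (5.96% and 5.62% of the lists). Of the 287 genes higher in Pn.aa that were tested, 123 (42.9%) were also higher in VA, VB and VC, and these were 20.3% of 605. In the opposite direction were 13 (4.53% and 2.99%). These are other cells of the same libraries, annotated in the same set.

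Genes that kept the side of Pn.ap included unc-55 (3.46 in AS and VD over VA, VB and VC), elt-1 (5.57), lev-1 (5.60) and ces-1 (4.75). On the side of Pn.aa were pag-3 (-2.82), ceh-6 (-3.67) and lag-2 (-2.27). Genes that changed side, beside egl-46, included irx-1 (-1.43, not called without the replicate block), cdk-4 (-2.91), cki-2 (-2.55) and fmi-1 (-1.81), and in the other direction madd-4 (2.2). F43G6.4 and syg-2 stood at 492 to 548 and 474 to 528 CPM in VB, a neuron of the other branch, and at 44.6 to 96.5 and 57.7 to 144 CPM in VD. cnd-1 stood at 11.3 to 79.3 CPM in AS and 44.6 to 175 CPM in VD, below its level in Pn.ap. hlh-14 stood at 466 to 1603 CPM in Pn.aaa, the daughter of Pn.aa.

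**Figure D5:**
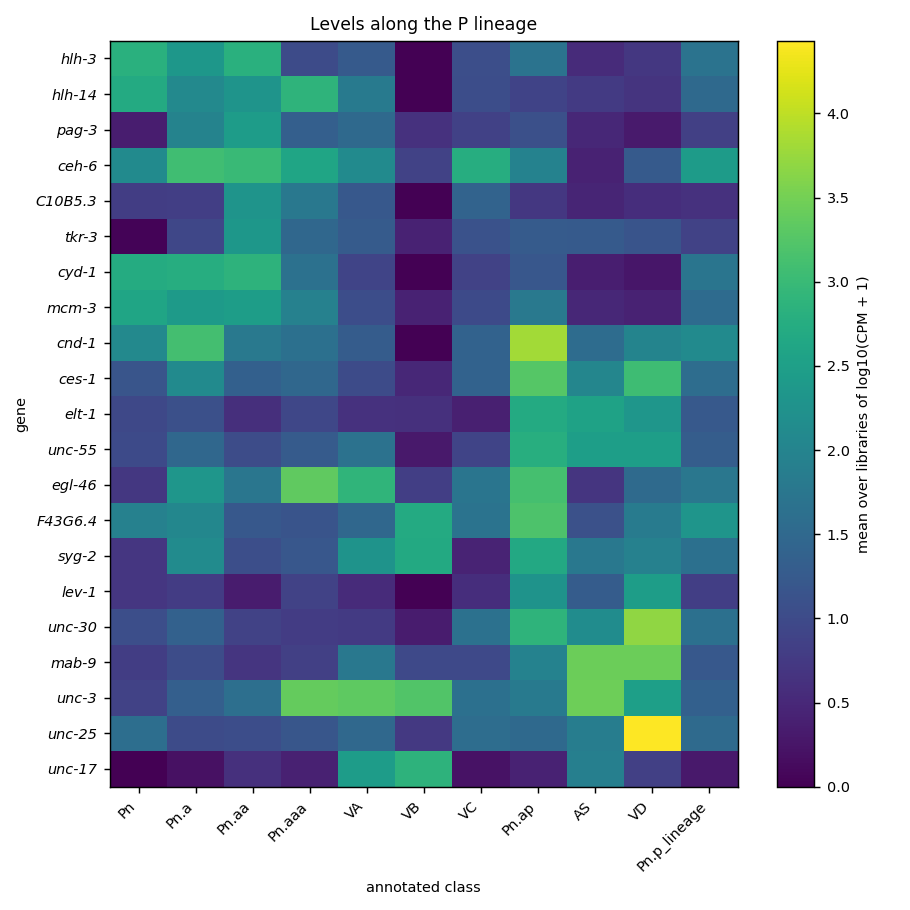
Mean over libraries of log10(CPM + 1) for 21 genes in the classes of the P lineage, for libraries with at least 20 cells of the class. unc-55 and elt-1 are high in Pn.ap, AS and VD, cnd-1 is high in Pn.ap and lower in AS and VD, and unc-3 is high in Pn.aaa, VA, VB and AS but not in either sister.

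Cells with the same annotation occurred outside the P-lineage sorts, 117 Pn.aa and 245 Pn.ap cells in 12 libraries, and 2 of these held at least 30 of each class. One was the command interneuron sort of strain NC3581 (12 to 16 hph, 35 Pn.aa and 39 Pn.ap cells), and the other pooled strains with unc-4c, ceh-2 and acr-2 reporters (13 to 17 hph, 41 and 55 cells). The threshold was chosen after the cell counts were seen, and the annotation was shared, so the values are a description. A gene could also reach the minimum of 10 UMIs used below through the class where it was high alone. Genes that were not high there could drop out, so the shares below are partly set by this filter. Of the genes called higher in Pn.ap with at least 10 UMIs in the pair of classes, 178 of 196 (90.8%) and 276 of 289 (95.5%) were higher in Pn.ap in these 2 libraries. Of those called higher in Pn.aa, 158 of 165 (95.8%) and 215 of 219 (98.2%) were higher in Pn.aa. Among those that were not, flp-19 went the other way in the command interneuron sort, at 53.1 CPM in Pn.aa and 359 CPM in Pn.ap (3 and 18 UMIs). Of the genes tested and not called, 41.3% and 39.7% were higher in Pn.ap.

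unc-30 was at 0 CPM in Pn.aa of both libraries and at 1217 and 1598 CPM in Pn.ap. unc-55 was at 0 CPM in Pn.aa of both and at 1536 and 919 CPM in Pn.ap. unc-3 went the other way, at 17.7 and 39.3 CPM in Pn.aa and 0 and 10.9 CPM in Pn.ap, on at most 4 UMIs per sum. cyd-1 was at 637 and 815 CPM in Pn.aa and at 19.9 and 10.9 CPM in Pn.ap. vab-10, without the UD381 reporter, was at 70.8 and 78.5 CPM in Pn.aa and 59.8 and 32.8 CPM in Pn.ap. unc-54 was at 0 and 638 CPM in Pn.aa and 7779 and 339 CPM in Pn.ap. The order of the P-lineage sorts, higher in Pn.aa, was thus turned in the command interneuron sort and kept in the other library.

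The product of side and age measures a change with age in the difference between the sisters. For it 43 of 5957 genes were called (0.722%), 24 upward (0.403%) and 19 downward (0.319%) per 10 h. The ages of 11 to 14 and 15.5 to 18.5 hph had 1 library each, so in this fit age cannot be told apart from library. This fit had 2 residual degrees of freedom, so a gene that was not called is not shown to have kept its difference, and the count moved with every library left out: 4 genes were called without that of 11 to 14 hph, 168 without that of 15.5 to 18.5 hph, and 194 and 158 without replicates 1 and 2 of 21 to 24 hph. The unc-30 difference was not called for a change with age (log2 fold change 0.23 ± 1.24 SE, adjusted p = 0.981 per 10 h). Nor was that of unc-55 (log2 fold change -0.47 ± 0.63 SE, adjusted p = 0.842 per 10 h).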

How the data were processed

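The deposited matrix holds raw UMI counts per gene and cell, which the authors made with Cell Ranger 6.0.0, per the submitters' processing notes; the genome build, cell filters, doublet removal and way of annotation were not given in the sources used here. Cell classes are those of the authors' deposited annotation. Cells were sorted by FACS with DAPI to mark dead cells, per the labels' protocols.

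Counts were summed per library and class for classes of at least 50 cells, filtered with filterByExpr, scaled by TMM (factors 0.953 to 1.086 between the sisters) and tested with edgeR 4.0.16 in R 4.3.3 (quasi-likelihood, library as block). Sisters of 1 library come from the same sort, so the library is the pairing. Each p-value was adjusted by Benjamini-Hochberg over all genes tested, and a call needed an adjusted p under 0.05 and a log2 fold change of at least 1. CPM is a gene's UMIs per 1000000 UMIs of that class and library. SE is the fold change divided by the square root of F. DESeq2 1.42.0 was an alternative. The fit was tested on simulated data. Cells were thinned to 1000 UMIs (alternative: 500) to compare detection. Nothing says that the libraries came from separate cultures, so p-values measure how the class difference varies over these 4 libraries. The sister fit had 3 residual degrees of freedom. No doublet caller was run.

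Named genes were unc-3, unc-30 and unc-55, the 12 smallest p in each direction, called members of 22 gene lists and defining pathway genes; for other comparisons these and the 5 smallest p in each direction. The members, lists and rules were chosen with earlier results of these data known. Genes of near-identical families may share reads.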

Additional observations from a re-analysis of the deposited data

Results flagged for a closer look

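The 17 genes below are those among the named genes whose difference between Pn.ap and Pn.aa changed with the age of the larvae, by the product of side and age (edgeR quasi-likelihood test, adjusted p under 0.05 over 5957 genes). Values are changes of the Pn.ap minus Pn.aa log2 difference per 10 h. Among regulators, pag-3 (log2 fold change 3.15 ± 0.61 SE, adjusted p = 0.0373) stood at 652, 273, 165 and 220.2 CPM in Pn.aa and 4.68, 14.2, 6.7 and 32.6 CPM in Pn.ap. egl-44, a TEAD-type factor (log2 fold change -3.25 ± 0.53 SE, adjusted p = 0.0149), stood at 55.2, 38.1, 11.7 and 18.6 CPM in Pn.ap and 15.2, 61, 55.1 and 68.7 CPM in Pn.aa. unc-25 changed by 6.08, with most of its Pn.ap level in replicate 2 of 21 to 24 hph, where Pn.p_lineage also held its highest level. The part of free RNA in this was not tested.

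The remaining list genes were mcm-6 (-2.04), cam-1 (1.31), unc-10 (2.70), vab-1 (2.38) and madd-4 (3.51). By smallest p the genes were W08A12.3 (1.73), cutl-15 (3.12), tceb-3 (2.44), ras-1 (2.47), Y47A7.2 (-2.80), F36G3.1 (-2.50), Y7A9D.1 (-2.53), Y47G6A.31 (-2.24) and bam-2 (-3.27). Of the 17, 1 (Y47A7.2) kept its call under every alternative and 16 did not, of which unc-25 turned direction without the library of 15.5 to 18.5 hph (-1.77). Without the library of 11 to 14 hph 3 kept their call, unc-25, madd-4 and Y47A7.2.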

How the results depend on the processing

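The sister comparison gave 832 to 1051 calls when each library was left out, and with no minimum fold 1936. Without the replicate block it gave 784 (449 higher, 335 lower), within 1.5 times of 955. Over the named genes 97 of 131 kept their call under every alternative in which they were tested, and none turned direction. A gene under the count filter in an alternative was not counted as lost there, and no call could be lost with no minimum fold. Of the 34 that lost their call, 26 did so without the block. With DESeq2 11 lost it, beside mab-9 and rab-3 the genes ced-3, egl-3, hlh-17, lin-17, plx-1, sem-4, snf-11, sng-1 and unc-5. For Pn.aa against Pn.a the count was 549 to 769 over left-out libraries and 1426 with no minimum fold, for Pn.ap against Pn.a 1121 to 1450 and 2925, and for the descendants 1838 to 2226 and 3424. The age term was the least stable: 28 calls with DESeq2, 161 with no filter on low counts, 98 with robust spread and 4 to 194 over left-out libraries. unc-25 turned direction for age without the library of 15.5 to 18.5 hph (-1.77), and stood at 10.07 without replicate 2 of 21 to 24 hph. The cause of these moves was not tested. The mean in place of the median UMIs per cell turned the sign of the depth ratio (0.0238).

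In single cells, 500 UMIs gave unc-30 shares in Pn.ap of 16.7% at 15.5 to 18.5 hph and 28.4% in replicate 2 of 21 to 24 hph; unc-3 shares were 4.36% and 6.83% in Pn.ap of replicates 1 and 2 and 2.33% in Pn.aa of replicate 1. Unthinned, unc-30 in Pn.ap was 19.1% and 36.7% at 15.5 to 18.5 hph and in replicate 2, and unc-3 6.94% and 17.2%, with 3.94% and 12.3% in Pn.aa. With at least 1000 UMIs per cell, Pn.aa made up 37.3% of sister cells at 15.5 to 18.5 hph. A minimum of 20 cells kept the same libraries and gave no other value. Barcodes in more than 1 library, unc-54 and unthinned shares were alternatives added after seeing the data. Pn.aa of 21 to 24 hph replicate 1 rests on 86 cells, where 1 UMI is 3.44 CPM.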
